A study of Mus musculus with 10 samples.

Results

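The plasminogen system and its serpins were examined through 8 genes, chosen by symbol: *Plg*, *Plat*, *Plau*, *Plaur*, *Serpine2*, *Serpinf2*, *Serpinf1* and *Thbd*. Each symbol occurred once among the 55359 genes of the deposited table. RNA-sequencing had been performed on C2C12 cells, an immortalized mouse myoblast line that fuses into myotubes when serum is lowered. There were 5 libraries of cells that received a control siRNA (si-Control) and 5 of cells that received an siRNA against *Fndc1* (si-*Fndc1*), which encodes a secreted fibronectin type III domain protein. According to the sample labels, every culture shared the line, grown in medium with 20% fetal bovine serum (the methods give a lower share), the siRNA dose of 100 nM and 4 days of differentiation in 2% horse serum, whereas the series text describes a harvest 48 h after transfection. All libraries came from 1 cell line and a single siRNA against *Fndc1* is named, and the labels do not say whether the 5 libraries of a group were separate cultures (the methods speak of independent experiments in general, without naming these libraries), so the p-values measure the spread between these libraries, which may be technical.

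Plasminogen, the product of *Plg*, is a zymogen made mainly by the liver, and tissue-type (*Plat*) and urokinase-type (*Plau*) plasminogen activators cleave it to plasmin, a protease that dissolves fibrin and degrades extracellular matrix. The urokinase receptor (*Plaur*) holds urokinase at the cell surface, and serpins end the reaction: protease nexin 1 (*Serpine2*) acts on the activators, and alpha 2-antiplasmin (*Serpinf2*) acts on plasmin. In skeletal muscle the system is known for clearing fibrin and remodelling matrix during repair.

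The target of the siRNA was checked first. *Fndc1* was measured at 26.7, 24.7, 28.7, 29.6 and 29.2 FPKM in si-Control replicates 1 to 5 and at 20.4, 23.5, 20.8, 21.1 and 18.7 FPKM in si-*Fndc1* replicates 1 to 5, where FPKM is the count per length of transcript and size of library. All 5 si-*Fndc1* libraries were below all 5 si-Control libraries, and the log2 fold change was -0.40 ± 0.07 (SE, n = 5 per group, adjusted p = 0.000934, edgeR quasi-likelihood test with Benjamini-Hochberg adjustment), or -0.22 with an offset for GC content and length. Total counts ranged from 66771605 to 75995168 over the si-Control group and from 56332844 to 72839369 over the si-*Fndc1* group, si-*Fndc1* replicate 5 being the smallest. Of 10 muscle markers, all had counts in every library, with a summed level of 11854 to 13741 CPM (the count scaled to a common library size) across si-Control libraries and 10911 to 13157 CPM across si-*Fndc1* libraries, and 3 of them rose (*Ckm* 0.39, *Mymk* 0.26 and *Myod1* 0.16 on the log2 scale), *Ttn* fell (-0.45) and 6 did not pass the test. The share of these markers called was 40%, against 34.4% of all genes tested. With the offset for GC content and length *Ttn* turned to 0.07 and *Mymk* was at 0.20, neither past the threshold, and with a replicate block *Myod1* was not either. Low counts clustered at multiples of 4 (3967 values of 3, 10699 of 4 and 2243 of 5), so small counts are less precise than their size implies.

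The genes fell into 2 classes in si-Control cells. A gene was called expressed when its si-Control mean was at least 0.5 FPKM and each si-Control library held at least 10 counts. *Plat*, *Plau*, *Plaur*, *Serpine2*, *Serpinf1* and *Thbd* met this, and *Plg* and *Serpinf2*, both known as liver transcripts, did not. In mean si-Control FPKM the order was *Serpinf1*, *Plau*, *Plat*, *Plaur*, *Thbd*, *Serpine2*, *Serpinf2* and *Plg*. The libraries of *Thbd* and *Serpine2* overlapped, as did those of *Serpinf2* and *Plg*, and all other neighbours in that order were apart. Levels between genes rest on the transcript lengths behind the deposited FPKM, which are not stated. For *Thbd* the length implied by count and FPKM, 4145 bases, exceeded the listed span of the gene, 3723 bases.

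**Figure D1:**
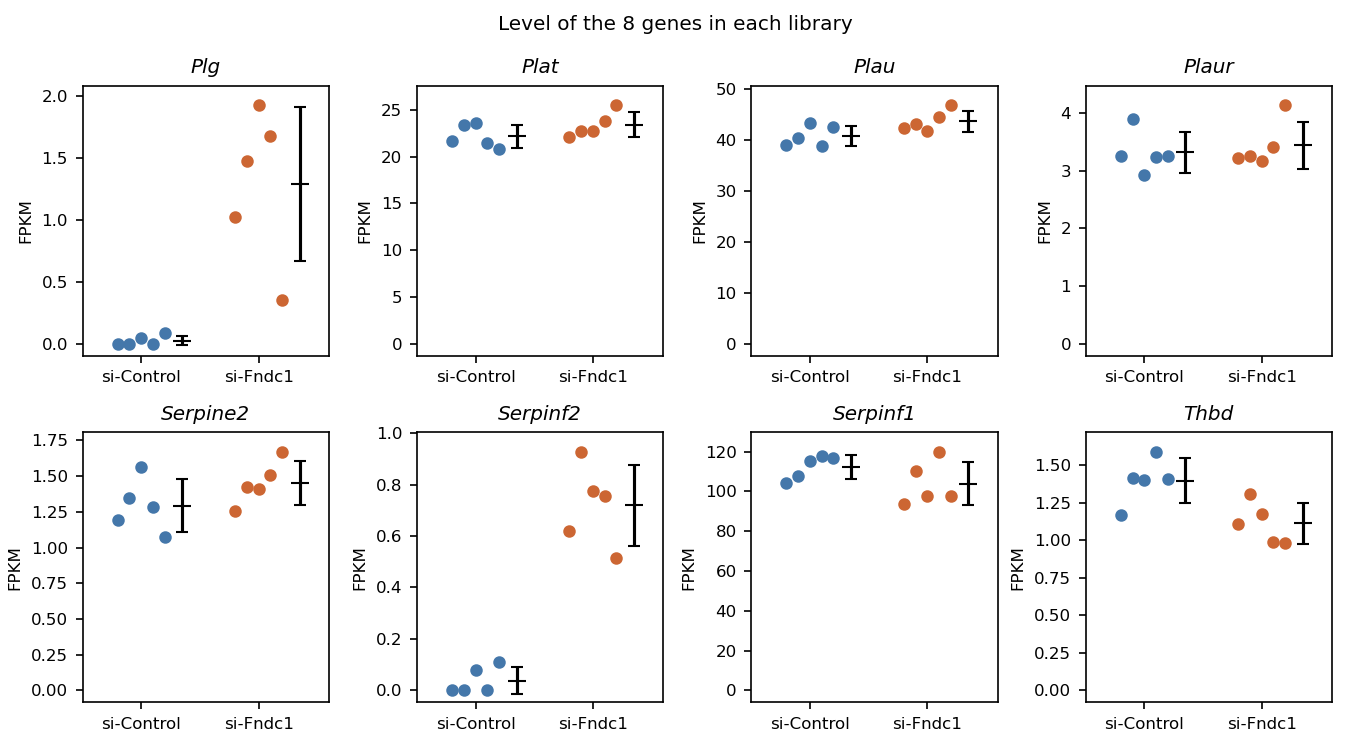
FPKM of the 8 genes (vertical axes, linear, a separate scale per gene) in the 5 si-Control (blue) and 5 si-*Fndc1* (orange) libraries, with replicates 1 to 5 from left to right; the black bar gives the mean and SD (n = 5). *Plg* and *Serpinf2* sit near 0 in si-Control and higher in every si-*Fndc1* library, whereas the groups overlap for the other 6 genes.

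Across the 8 genes, *Plg* rose and *Thbd* fell in si-*Fndc1* cells, and the activators, the urokinase receptor, *Serpine2* and *Serpinf1* did not pass the test. With genes of at least 0.5 mean FPKM over the 10 libraries, 7 of the 8 were tested and 2 were called at an adjusted p under 0.05, where 34.4% of all 13548 genes tested were called. *Plg* passed that filter only through its si-*Fndc1* libraries. *Serpinf2* lay under the filter and was called when every gene with a count was tested, a fit in which 14.4% of 28952 genes were called. In that fit *Thbd* was not called (adjusted p = 0.0962, edgeR). The FPKM values of the groups did not overlap for *Plg* and *Serpinf2*, as for 13% of the 28952 genes.

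**Figure D2:**
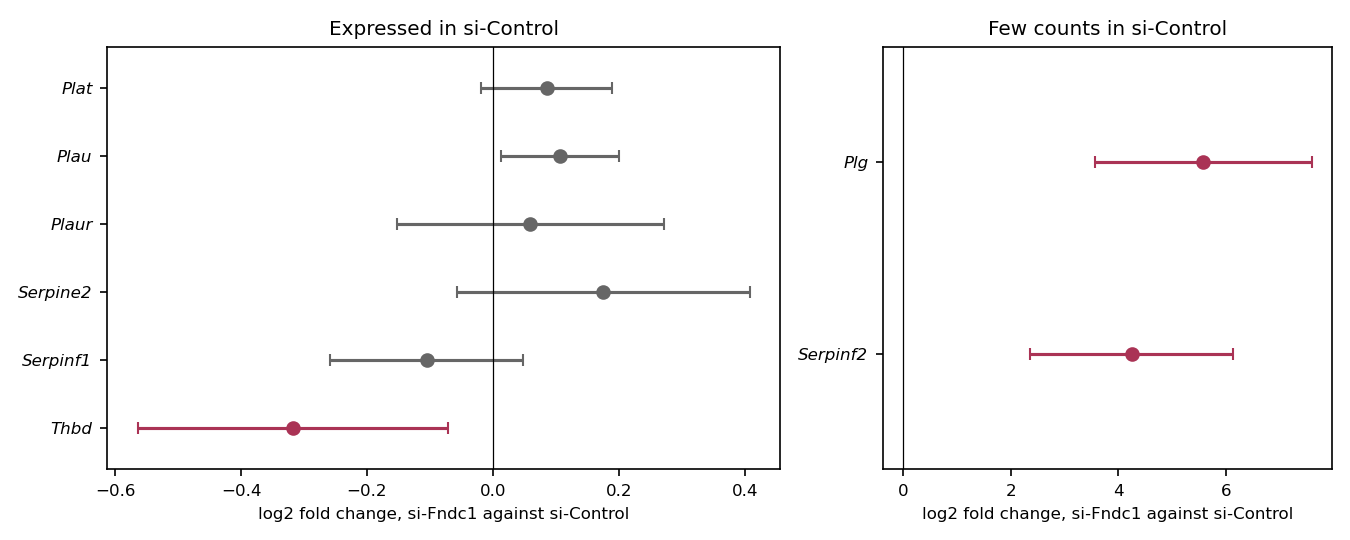
Log2 fold change of si-*Fndc1* against si-Control (horizontal axes, separate scales) for the genes expressed in si-Control and for the genes with few si-Control counts; points are edgeR estimates, bars 95% confidence intervals, and red marks an adjusted p under 0.05. The intervals of *Plg* and *Serpinf2* lie above 2, that of *Thbd* below 0, and those of *Plat*, *Plaur*, *Serpine2* and *Serpinf1* include 0.

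*Plau* (ENSMUSG00000021822, chr14:20886728-20893453, + strand, as the deposited table lists it, with GRCm39 named in the submitters' processing notes) encodes urokinase, the activator that works at the cell surface. It was measured at 39.1, 40.6, 43.3, 38.8 and 42.6 FPKM in si-Control and at 42.4, 43.2, 41.7, 44.6 and 46.9 FPKM in si-*Fndc1* replicates 1 to 5. The groups overlapped, with 2 si-*Fndc1* libraries above the highest si-Control library and all 5 above the si-Control median. The means were 40.9 ± 2.03 and 43.8 ± 2.06 FPKM (SD, n = 5), and the log2 fold change was 0.11 ± 0.04 (SE, adjusted p = 0.0755, edgeR). The 95% interval of the fold change was 1.01 to 1.15. Correction for GC content and length turned its direction, to -0.04 (adjusted p = 0.562, edgeR), and upper-quartile scaling and leaving out si-Control replicate 3 each brought it past the threshold (adjusted p = 0.0445 and 0.0498).

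*Plat* (ENSMUSG00000031538, chr8:23247743-23272860, + strand) encodes tissue-type plasminogen activator, which works mainly on fibrin. Its levels were 21.6, 23.4, 23.5, 21.4 and 20.8 FPKM in si-Control and 22.1, 22.8, 22.7, 23.8 and 25.5 FPKM in si-*Fndc1* replicates 1 to 5. The ranges overlapped, and si-*Fndc1* replicate 5 was the highest of the 10 libraries. The means were 22.2 ± 1.23 and 23.4 ± 1.32 FPKM (SD, n = 5), with a log2 fold change of 0.09 ± 0.05 (SE, 95% interval -0.02 to 0.19, adjusted p = 0.190, edgeR). The ratio of *Plau* to *Plat* FPKM spanned 1.73 to 2.05 across si-Control libraries and 1.84 to 1.92 across si-*Fndc1* libraries. In counts the order was reversed, at 9645 to 11623 for *Plat* and 7417 to 8115 for *Plau* in si-Control libraries. In si-*Fndc1* libraries these counts were 9942 to 11882 and 6939 to 8442. The FPKM order thus rests on the implied lengths, 6940 bases for *Plat* and 2632 bases for *Plau*. Which activator transcript was the more abundant depends on these lengths.

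*Plaur* (ENSMUSG00000046223, chr7:24161909-24175393, + strand), the receptor that concentrates urokinase on the membrane, was measured at 3.26, 3.89, 2.92, 3.24 and 3.26 FPKM in si-Control and at 3.23, 3.25, 3.16, 3.42 and 4.14 FPKM in si-*Fndc1* replicates 1 to 5. Both the lowest library and the second highest were si-Control libraries. The log2 fold change was 0.06 ± 0.10 (SE, 95% interval -0.15 to 0.27, adjusted p = 0.674, edgeR), and without si-*Fndc1* replicate 5, the highest library, it was -0.01.

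Of the inhibitors, *Serpine2* (ENSMUSG00000026249, chr1:79771914-79836413, - strand), whose product also inhibits thrombin, was measured at 1.19, 1.35, 1.57, 1.28 and 1.07 FPKM in si-Control and at 1.25, 1.42, 1.41, 1.51 and 1.67 FPKM in si-*Fndc1* replicates 1 to 5. The groups overlapped over most of their range. Its log2 fold change was 0.18 ± 0.11 (SE, 95% interval -0.06 to 0.41, adjusted p = 0.225, edgeR).

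*Serpinf1* (ENSMUSG00000000753, chr11:75300595-75313527, - strand) encodes pigment epithelium-derived factor, a secreted protein with the serpin fold that does not inhibit proteases. It was the most abundant of the 8 transcripts, at 104.3, 107.7, 115.3, 118.0 and 116.6 FPKM in si-Control and 93.9, 110.1, 97.6, 120.0 and 97.8 FPKM in si-*Fndc1* replicates 1 to 5. The si-*Fndc1* group was the wider, with 3 libraries below the si-Control range and 1, replicate 4, above it. The means were 112.4 ± 6.03 and 103.9 ± 10.9 FPKM (SD, n = 5), and the log2 fold change was -0.11 ± 0.07 (SE, 95% interval -0.26 to 0.05, adjusted p = 0.270, edgeR).

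*Thbd* (ENSMUSG00000074743, chr2:148246386-148250108, - strand) encodes thrombomodulin, the membrane receptor that turns thrombin toward activation of protein C and of the carboxypeptidase that slows fibrinolysis. It was measured at 1.17, 1.41, 1.40, 1.59 and 1.41 FPKM in si-Control and at 1.11, 1.31, 1.17, 0.990 and 0.982 FPKM in si-*Fndc1* replicates 1 to 5. All 5 si-*Fndc1* libraries were below the si-Control median and 3 were below the lowest si-Control library. The means were 1.40 ± 0.149 and 1.11 ± 0.135 FPKM (SD, n = 5), and the log2 fold change was -0.32 ± 0.11 (SE, 95% interval -0.56 to -0.07, adjusted p = 0.0477, edgeR). The FPKM values gave p = 0.0238 (exact permutation test, two-sided), which was not adjusted for the number of genes.

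The *Thbd* call lay at the threshold. It was kept without si-Control replicate 1 or si-*Fndc1* replicate 2 (adjusted p = 0.0278 and 0.0223, edgeR) and lost without any other single library, namely si-Control replicates 2, 3, 4 and 5 and si-*Fndc1* replicates 1, 3, 4 and 5, with adjusted p = 0.0759, 0.0824, 0.108, 0.0823, 0.0824, 0.0624, 0.106 and 0.1 in that order. The fall was -0.38 to -0.27 on the log2 scale over these 10 fits. *Thbd* is best known in endothelial cells, and of 8 endothelial markers *Cdh5* and *Emcn* were at 0 in every library, 2 to 6 markers were at 0 in any library, and their sum spanned 1.03 to 1.62 CPM across si-Control libraries and 0.993 to 2.40 CPM across si-*Fndc1* libraries. The endothelial markers *Tek* and *Cldn5* had counts in every library (30 to 45 and 13 to 31 in si-Control, 37 to 103 and 8 to 47 in si-*Fndc1*). Of 8 macrophage markers, *Ptprc*, *Adgre1* and *Tyrobp* were at 0 in every library, and the sum was 8.58 to 9.73 CPM and 7.61 to 10.2 CPM. *Cd14*, *Cd68*, *Csf1r* and *Itgam* had counts in every library, the first 2 at 439 to 625 and 60 to 110 in si-Control and 343 to 571 and 47 to 86 in si-*Fndc1*. In bulk RNA, fewer cells of a type and less RNA per cell cannot be told apart.

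si-*Fndc1* replicate 5 was the highest of the 10 libraries for *Plau*, *Plat*, *Plaur* and *Serpine2* and the lowest for *Thbd*. Within the si-*Fndc1* group it was also the lowest for *Plg* and *Serpinf2*.

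*Plg* (ENSMUSG00000059481, chr17:12597495-12638272, + strand), the zymogen, had deposited counts of 0, 0, 15, 0 and 24 in si-Control and of 301, 447, 562, 498 and 82 in si-*Fndc1* replicates 1 to 5. In FPKM these were 0.0495 and 0.0856 in si-Control replicates 3 and 5, with the other si-Control libraries listed at 0.0001, the value given for a count of 0, and 1.03, 1.48, 1.93, 1.68 and 0.352 in si-*Fndc1*. Every si-*Fndc1* library was above every si-Control library, and replicate 5 was the lowest of its group. The counts summed to 39 in si-Control and 1890 in si-*Fndc1*, and the log2 fold change was 5.58 ± 0.91 (SE, 95% interval 3.56 to 7.60, adjusted p = 0.000925, edgeR), a fitted value that depends on how counts of 0 are treated and was 6.65 without si-Control replicate 5. The FPKM values gave p = 0.00794 (exact permutation test, two-sided), the smallest that 5 against 5 libraries can give. *Slc22a3*, on the opposite strand, was the only listed gene that overlapped *Plg* and had 0 counts in every library.

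*Serpinf2* (ENSMUSG00000038224, chr11:75322558-75330417, - strand), the inhibitor of plasmin, had counts of 0, 0, 15, 0 and 19 in si-Control and of 114, 176, 143, 141 and 75 in si-*Fndc1* replicates 1 to 5. The same 2 si-Control libraries that held *Plg* counts, replicates 3 and 5, held those of *Serpinf2*. Its mean FPKM was 0.0376 ± 0.0524 in si-Control and 0.719 ± 0.158 in si-*Fndc1* (SD, n = 5), with all 5 si-*Fndc1* libraries above the si-Control range (exact permutation test, two-sided p = 0.00794). In the fit of every gene with a count, the log2 fold change was 4.25 ± 0.86 (SE, 95% interval 2.36 to 6.14, adjusted p = 0.00573, edgeR), and 5.12 without si-Control replicate 5. At their si-*Fndc1* levels *Plg* and *Serpinf2* were still below *Plaur*, *Plau*, *Plat* and *Serpinf1* in mean FPKM.

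Markers of hepatocytes, the cell type in which *Plg* and *Serpinf2* are mainly made, moved with both genes. Of 18 hepatocyte markers, 14 were tested and 4 lay under the filter. Every tested marker but *Alb* had a si-Control mean under 0.5 FPKM and so passed only through its si-*Fndc1* libraries, which leaves no weight to the count that all 14 were higher there. The groups did not overlap for any of the 18, the tested and the untested alike, against 13% of genes with a count. All 18 had few si-Control counts and were listed with earlier results of these data known, so this contrast carries no weight either. Summed, they reached 0.646 to 15.6 CPM in si-Control libraries, with 0 to 16 markers at 0, and 108.5 to 386.5 CPM in si-*Fndc1* libraries, with none at 0. *Alb*, encoding albumin, had counts of 8, 99, 357, 0 and 492 in si-Control and of 7687, 11579, 9004, 10794 and 1763 in si-*Fndc1* replicates 1 to 5. The si-Control libraries with *Plg* counts, replicates 3 and 5, were those with the most *Alb*, and si-*Fndc1* replicate 5 was lowest of its group for *Alb*, *Plg* and *Serpinf2* alike. The part that such transcripts had in the *Plg* and *Serpinf2* results was not tested.

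The ratios of *Plg* and *Serpinf2* to the liver transcripts depended on the transcripts chosen. *Plg* stood at 42.0 and 48.8 counts per 1000 *Alb* counts in si-Control replicates 3 and 5 and at 39.2, 38.6, 62.4, 46.1 and 46.5 in si-*Fndc1* replicates 1 to 5. The values of si-Control replicates 3 and 5 thus lay inside the si-*Fndc1* range. In si-Control replicates 1 and 2 the ratios of both genes were 0, below their si-*Fndc1* ranges. These libraries held 8 and 99 *Alb* counts, so few that a ratio of 0 is imprecise. si-Control replicate 4 had no *Alb* counts. *Serpinf2* stood at 42.0 and 38.6 per 1000 *Alb* counts in si-Control replicates 3 and 5, at 14.8, 15.2, 15.9 and 13.1 in si-*Fndc1* replicates 1 to 4 and at 42.5 in replicate 5. The 3 libraries with the higher *Serpinf2* ratio were those with the lower *Alb* counts among the 7 that held counts of both genes. The si-Control ratios above 0 rest on 15 to 24 counts. Set against the summed 18 markers instead, *Plg* stood at 17.7 and 23.1 per 1000 counts in si-Control replicates 3 and 5 and at 13.4 to 22.0 in si-*Fndc1* libraries, so that si-Control replicate 5 lay above the si-*Fndc1* range. *Serpinf2* stood at 17.7 and 18.3 in these si-Control libraries and at 5.29 to 7.38 in si-*Fndc1* replicates 1 to 4 and 12.3 in replicate 5. All si-*Fndc1* values of *Serpinf2* were below those of si-Control replicates 3 and 5. Against this sum both genes were at 0 in si-Control replicates 1, 2 and 4, where the sum itself was only 49, 304 and 54 counts. These ratios are descriptions, and no test was made of them.

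**Figure D3:**
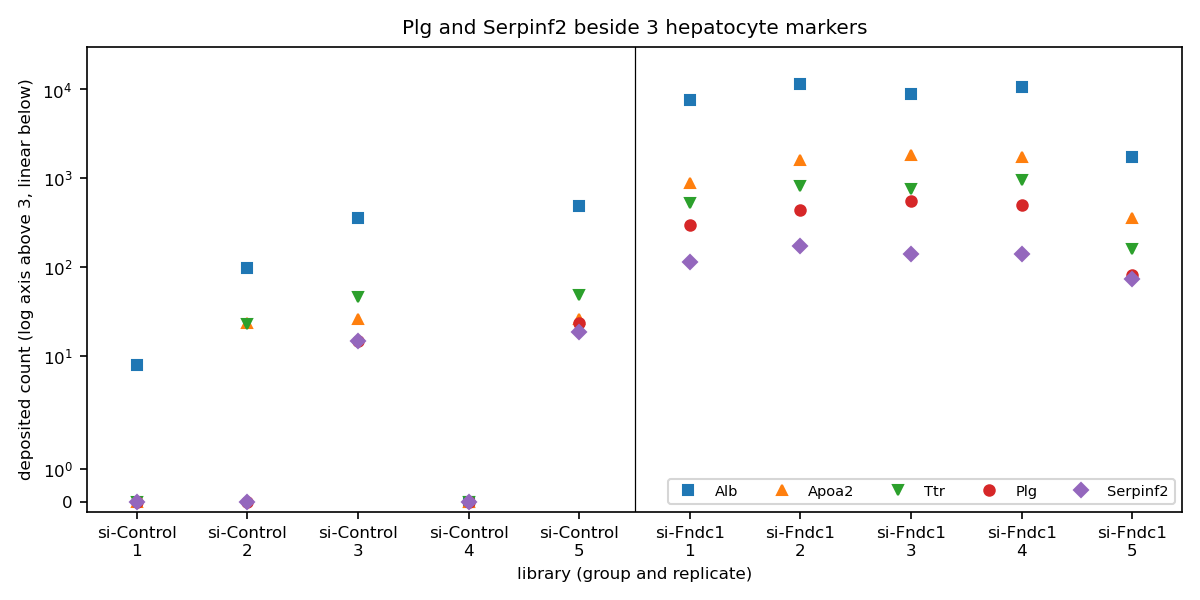
Deposited counts (vertical axis, logarithmic above 3 and linear below) of *Plg*, *Serpinf2* and the hepatocyte markers *Alb*, *Apoa2* and *Ttr* in each of the 10 libraries (horizontal axis; the order within a group carries no meaning). All 5 transcripts are at 0 in si-Control replicate 4, and *Alb* spans 0 to 492 counts across si-Control libraries and 1763 to 11579 across si-*Fndc1* libraries.

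*Serpinf1* and *Serpinf2* lie side by side on chromosome 11, on the same strand, 9030 bases apart in the deposited coordinates. The abundant *Serpinf1* had a log2 fold change of -0.11 and the scarce *Serpinf2* of 4.25, so their start-site windows are shown together. RefSeq windows of 300 bases, from 250 before to 50 after the start, were at hand for 4 of the 8 genes (*Serpine2*, *Plaur*, *Serpinf1* and *Serpinf2*), on build GRCm38.p6, whose coordinates are not those of the table. The windows below lie at chr11:75422574-75422873 (*Serpinf1*) and chr11:75439452-75439751 (*Serpinf2*), are written 5′ to 3′ on the - strand, and carry matches to the searched letters in capitals.
Serpinf1: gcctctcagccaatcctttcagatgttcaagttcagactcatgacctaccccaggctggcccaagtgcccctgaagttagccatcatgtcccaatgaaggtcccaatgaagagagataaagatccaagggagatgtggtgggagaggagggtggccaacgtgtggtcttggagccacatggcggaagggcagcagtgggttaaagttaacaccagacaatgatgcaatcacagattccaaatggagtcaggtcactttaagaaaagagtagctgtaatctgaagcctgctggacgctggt
Serpinf2: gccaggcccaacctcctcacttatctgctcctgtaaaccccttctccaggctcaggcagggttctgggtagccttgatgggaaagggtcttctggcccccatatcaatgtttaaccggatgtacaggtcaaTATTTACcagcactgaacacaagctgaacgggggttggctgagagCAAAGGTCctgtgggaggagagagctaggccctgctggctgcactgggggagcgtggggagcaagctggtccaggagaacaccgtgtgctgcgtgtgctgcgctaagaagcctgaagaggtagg

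Both strands of the windows were searched for 6 short motifs, which were chosen after the sequences had been seen and do not overlap each other here. *Serpinf2* held an HNF4-type site, spelled CAAAGGTC, from base -74 counted from the start, as do 1.17% of all 32851 windows of this length. It also held the forkhead core TATTTAC from base -119, as do 3.04% of windows. *Plaur* held an AP-1 site, TGACTCA, from base -69, as do 5.2% of windows. The HNF1 half-site GTTAAT, present in 7.1% of windows, was in none of the 4. Neither was the E-box of myogenic factors, CAGCTG, present in 16.3% of windows. The TATA box, searched as TATAAA and present in 13.6% of windows, was in none of them either. *Serpinf1* and *Serpine2* held none of the 6. The GC content of the windows was 77.7% for *Serpine2*, with 41 CpG dinucleotides, 59.3% for *Plaur*, 57.3% for *Serpinf2* and 50.7% for *Serpinf1*, against a median of 52.7% with 7 CpG. A match to letters is a description of the sequence and no evidence of binding.

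The wider pathway was described with 6 lists by role, 53 genes in all, which include the 8. Of these, 39 were tested, 14 rose, 6 fell and 19 did not pass. Among the 31 expressed in si-Control, 6 rose and 6 fell, which is 38.7% called against 34.4% of all genes tested, with a median log2 fold change of 0.09. The other 22 had few si-Control counts, and 8 of them were tested, all 8 of which passed the filter only through their si-*Fndc1* libraries and were higher there. Over all 22, the groups did not overlap for 12, against 13% of genes with a count. The 22 were set apart by their low si-Control values and the genes behind that share were not, so the contrast carries no weight.

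**Figure D4:**
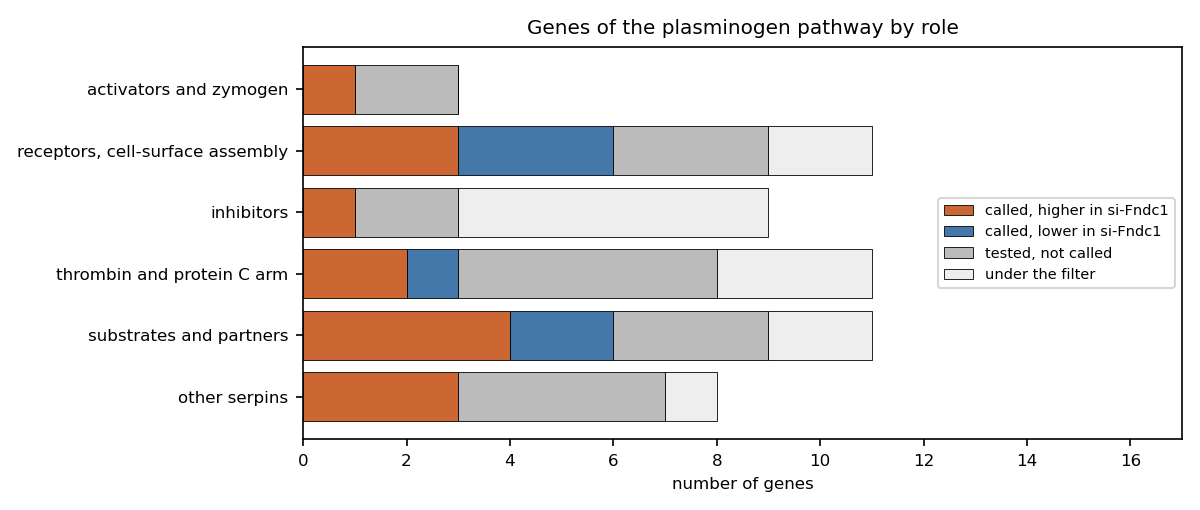
Number of genes (horizontal axis) in each of 6 lists by role that were called higher or lower in si-*Fndc1*, tested but not called, or under the filter of 0.5 mean FPKM. The list of receptors and cell-surface assembly holds 3 higher and 3 lower genes, and that of inhibitors holds 1 higher gene, *Hrg*, with 6 of 9 under the filter.

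Of 11 receptors and proteins of cell-surface assembly, 9 were tested, 3 rose and 3 fell, or 66.7% called against 34.4% of all genes tested. *Lrp1*, the endocytic receptor that clears complexes of activator and inhibitor, fell from 164.7 ± 7.39 to 116.0 ± 7.35 FPKM (SD, n = 5; log2 fold change -0.50, adjusted p = 4.36e-05, edgeR), a change of -0.11 once GC content and length were corrected for. The plasminogen-binding proteins *Anxa2* and *Eno1* rose, from 116.9 to 137.4 FPKM (0.24, adjusted p = 0.00271) and from 112.1 to 127.3 FPKM (0.19, adjusted p = 0.00192), the latter by 0.39 with that correction. For each of these 3 genes the groups did not overlap, as for 13% of genes with a count.

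Of 9 inhibitors, 3 were tested and 33.3% were called, against 34.4% of all genes tested. Only *Hrg*, the liver-made histidine-rich glycoprotein that binds plasminogen, was called. It passed the filter only through its si-*Fndc1* libraries, so this share carries no weight. The *Hrg* counts did not exceed 4 in any si-Control library, where 4 of 5 were at 0, and lay between 80 and 238 in the si-*Fndc1* libraries. In the thrombin and protein C arm, 8 of 11 were tested and 3 were called, 37.5% against 34.4%. Of these 3, *Serpind1* passed the filter only through its si-*Fndc1* libraries, so this share carries no weight. *Serpind1*, heparin cofactor II, and *F2*, prothrombin, rose, from 0.328 ± 0.0869 to 0.867 ± 0.199 FPKM (log2 fold change 1.41, adjusted p = 0.000984) and from 1.16 ± 0.0972 to 1.88 ± 0.508 FPKM (0.71, adjusted p = 0.0108), and *Thbd* fell. Both proteins are known as liver products, although *F2* had 371 to 455 counts in si-Control libraries. In si-*Fndc1* libraries *F2* had 341 to 866 counts, and the FPKM values of its groups overlapped, unlike those of *Serpind1*.

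Of 11 substrates and partners of plasmin, 9 were tested, 4 rose and 2 fell, or 66.7% called against 34.4%. All 4 that rose passed the filter only through their si-*Fndc1* libraries, so this share carries no weight. *Mmp14*, a membrane matrix metalloproteinase, fell from 158.4 ± 5.63 to 120.2 ± 3.32 FPKM (log2 fold change -0.39, adjusted p = 2.4e-05, edgeR) without overlap of the groups, or by -0.23 with that correction. *Fga*, a fibrinogen chain, and *Vtn*, vitronectin, an adhesive protein of plasma and matrix, are made by the liver and rose from 0 to 23 and 0 to 16 counts in si-Control to 205 to 877 and 112 to 609 counts in si-*Fndc1* libraries. Of 8 other serpins, 7 were tested and 3 rose, 42.9% against the 34.4% called over all genes tested. Of these 3, *Serpina3n* passed the filter only through its si-*Fndc1* libraries, so this share carries no weight. The intracellular serpins *Serpinb1a* and *Serpinb6a* rose from 50.2 to 68.1 FPKM (0.45, adjusted p = 1.99e-05) and from 53.9 to 74.1 FPKM (0.47, adjusted p = 8.87e-05), and the secreted *Serpina3n* from 0.112 to 1.1 FPKM (3.26, adjusted p = 0.000214). The corrected *Serpinb1a* value was 0.18.

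The genes closest to each of the 7 tested members across the 10 libraries were found by the root mean square difference of standardized log2(CPM + 0.5) values, in which 0 means the same pattern. *Serpinf2*, under the filter, was not included. *Plg* was closest to *Pck1*, *Vtn* and *Kng1* (0.0822, 0.0938 and 0.0955). *Plg*, *Vtn* and *Kng1* had si-Control means of 0.0271, 0.0381 and 0.0193 FPKM and passed the filter only through their si-*Fndc1* libraries. Genes near 0 in 1 group and much higher in the other come out close by this measure, so these small values carry no weight. The expressed members had larger values, a contrast that carries no weight either. *Thbd* was closest to *Kdm5c* (0.279), *Plau* to *Lhfp* (0.286), *Plat* to *Srp54c* (0.338), *Serpine2* to *Plat* (0.376), *Plaur* to *Nsa2-ps1* (0.450) and *Serpinf1* to *Septin9* (0.462). *Serpine2* was in turn the third closest gene to *Plat*. These values share libraries and depth and are descriptions.

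**Figure D5:**
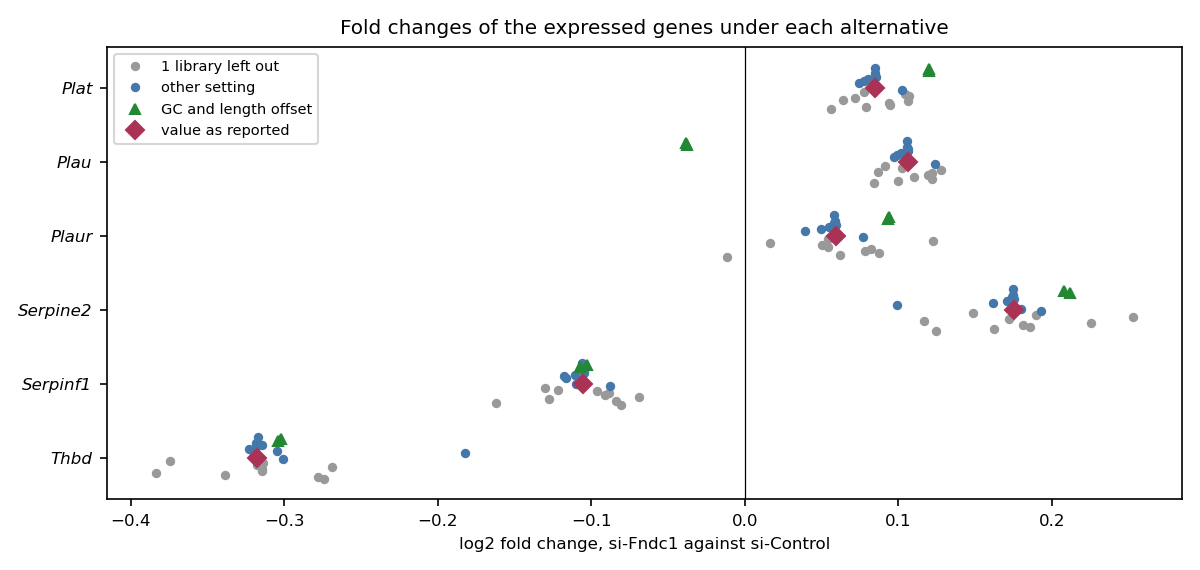
Log2 fold change (horizontal axis) of the 6 genes expressed in si-Control, as reported (red) and under each alternative (grey, 1 library left out; green, correction for GC content and length; blue, other settings). *Thbd* stays below 0, from -0.38 to -0.18, *Plat* stays above 0, from 0.06 to 0.12, and *Plau* turns to -0.04 with the GC and length correction. The *Thbd* value of -0.18 comes from log2(FPKM + 1) values, in which the added 1 compresses changes of genes at low levels.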

How the data were processed

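RNA-seq libraries of C2C12 cells were compared as 5 si-Control against 5 si-*Fndc1*, with groups and replicate numbers taken from the sample labels, and 0 columns were left without a sample. The authors deposited counts per gene without normalization and, beside them, FPKM values, listed as 0.0001 at a count of 0. The sources differ on upstream steps: the methods name TopHat, mm10 and htseq-count, the series text STAR and mm9, and the submitters' processing notes GRCm39 and cutadapt 1.9. The methods name fewer libraries than the 10 used here and another transfection reagent than the labels. Whether counting used strand is not given in the sources used here.

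Counts were tested with edgeR 4.0.16 (quasi-likelihood, TMM, R 4.3.3) over the 13548 genes averaging 0.5 FPKM or more, with Benjamini-Hochberg adjustment over all of them and a threshold of 0.05. Single FPKM levels were compared with exact permutation tests. Alternatives used DESeq2 1.42.0, limma 3.58.1 on log2(FPKM + 1) and log2(FPKM + 0.1), other scalings and filters, a GC and length offset, a replicate block and each library left out. Counts divided by 4 were added after the data were seen. The scripts were tested on simulated data. No libraries were duplicates (chi-square per degree of freedom of 41 to 76.7 over 20 pairs within groups).

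The 8 genes, the lists and the rules for naming genes were chosen with earlier results of these data known. Named were the 8 genes, *Fndc1*, the 3 called genes of smallest p per list, 3 hepatocyte markers and the genes closest to each member. A further gene of the inhibitor list is not reported here and was left out of the list counts. Total counts give the depth, 56332844 to 75995168 per library.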

Additional observations from a re-analysis of the deposited data

Results flagged for a closer look

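Of 48 groups of 5 libraries examined, 4 held a library far from the other 4 of its group (Dixon's test at the 95% level), where chance gives about 1 in 20. *Plaur* was at 4.14 FPKM in si-*Fndc1* replicate 5, with the others at 3.16 to 3.42 FPKM. In the same library *Serpind1* was at 0.521 FPKM, with the others at 0.903 to 1.02 FPKM. In si-Control replicate 5, *Fga* was at 0.101 FPKM, with the others at 0.0001 to 0.0224 FPKM, and *Hrg* was at 0.0252 FPKM, with the others listed at 0.0001. The 4 other *Hrg* values stand for a count of 0, so the test was bound to flag that group and its flag carries no weight. *Fga* was also near the floor in si-Control, at 0 to 23 counts. The rate of 1 in 20 assumes values without such ties.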

How the results depend on the processing

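*Plg* was called in all 22 alternatives (log2 fold change 1.11 with limma on log2(FPKM + 1) to 6.65 without si-Control replicate 5) and *Serpinf2* in all 19 that gave it a value (0.72 to 5.12, the same settings). The added 1 FPKM compresses changes of genes at such low levels, so these low ends are not on the scale of the other values. *Thbd* was called in 8 of 22, and *Plat*, *Plaur*, *Serpine2* and *Serpinf1* in none. The number of members called, 2, became 1 with the replicate block, 1 with the GC and length offset, 1 with both and 0 with a minimum mean of 5 FPKM, which removed *Plg*, *Plaur*, *Serpine2* and *Thbd*, and was 1 to 2 with 1 library left out. A number of 2 did not always mean the same genes. With upper-quartile scaling and without si-Control replicate 3 they were *Plg* and *Plau*, and with no filter *Plg* and *Serpinf2*. Calls over all genes, 4663, became 2543 with the GC and length offset and 1647 with the block added, over 11185 genes with a GC value, and were 4000 to 4627 with 1 library left out. Pathway genes called, 20, became 9 at the higher minimum, which left 20 to test, and were 18 to 20 with 1 library left out. The permutation test, without adjustment over the members, passed 3 members and 3 to 5 with 1 library left out, the 5 without si-Control replicate 3 adding *Plau* and *Serpine2*.

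*Plau* reversed to -0.038 with the GC and length offset and to -0.037 with the block added, and the muscle marker *Ttn* to 0.067 and 0.068. With 1 library left out, *Plaur* ranged from -0.011 (without si-*Fndc1* replicate 5) to 0.12. The cause was not tested. The GC offset was not run for *Serpinf2*, since 56.5% of the unfiltered genes had a GC value.

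The labels do not say whether a replicate number marks a shared culture or day. Deviations of same-numbered libraries correlated at -0.043 to 0.055, which cannot settle it. With the replicate block, 3572 genes and 17 pathway genes were called, *Thbd* lost its call (adjusted p = 0.102) and *Plg* and *Serpinf2* kept theirs (0.0122 and 0.0382, edgeR). The median over all genes moved between -0.006 and 0.022 on the log2 scale. Counts of 15 to 24 in si-Control limit the precision of *Plg* and *Serpinf2*.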
